A study of Mus musculus with 6 samples.

Results

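The genes described here encode Wnt ligands, their Frizzled and other receptors, the R-spondins and Lgr receptors that tune receptor number, secreted Wnt inhibitors, and the pathway readouts Lef1 and Axin2. They were chosen by symbol, with a rule written when earlier results of these data were known. It took every probe set with a single annotated gene whose symbol was that of a Wnt, Fzd, Sfrp, Dkk or Rspo gene. It also took those of Frzb, Lef1, Tcf7, Axin2, Lgr4, Lgr5, Lrp5, Lrp6, Ror1 and Ror2. The rule found 97 of 45101 probe sets, which covered 50 of 18194 genes: 19 ligands, 10 Frizzled receptors, 4 co-receptors or Ror receptors, 6 R-spondins or Lgr receptors, 9 secreted inhibitors, and Lef1 and Axin2. Tcf7 was not analysed here. Of the 50 genes, 42 were above the limit for dim genes (the array's 40th percentile, 4.54 to 4.59 on the natural-log scale) on at least 2 of 6 arrays and were tested.

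RNA came from mouse embryonic stem (ES) cells grown for 4 days as embryoid bodies, aggregates in which mesoderm forms, and sorted for the receptor Flk1 (gene Kdr), which marks the mesoderm that gives rise to blood and endothelium. Scl (gene Tal1) is a transcription factor required for blood formation. SclKO cells (n = 2 arrays) lacked functional Scl and came from the J1 ES line of strain 129S4/SvJae; the sorting protocol names Flk1 as their sole gate, although their titles call them Scl negative. WT Scl+ cells (n = 2 arrays) carried Flk1 and human CD4, and WT Scl- cells (n = 2 arrays) carried Flk1 without human CD4. Both WT groups came from the same R1-derived reporter line, of (129/Sv x 129/Sv-CP)F1 origin, in which human CD4 was knocked into Scl to report its expression. All groups grew in serum, and the labels list no added Wnt protein or Wnt inhibitor. For every sample, 2 days of a step before the embryoid bodies and 100000 cells plated per well were recorded. Knockout, ES line and gate cannot be told apart where SclKO is compared with a WT group, and the labels do not give the number of clones of either line. Nothing states that the replicates were separate cultures, so the tests measure the spread between these arrays.

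The values are natural logs of the deposited values, called levels here. A difference of 1 log unit is a factor of 2.72 in the deposited values, or of 2 if those logs are the log2 values of RMA, which their range resembles; the base is not stated. Levels of different probe sets were not set against each other. Tal1 was at 5.71 and 6.14 in SclKO, at 8.65 and 8.78 in WT Scl+ and at 6.52 and 7.97 in WT Scl-, an order that matched the labels. Kdr lay between 10.83 and 11.35 on all 6 arrays. WT Scl+ replicate 2 stood apart, at -51.3 on a first principal component (55.9% of the variance) on which the other 5 arrays ran between -9.9 and 26.0. In every group, replicate 2 lay below replicate 1 on this component. The replicates of the 42 Wnt genes were also spread more widely than those of other genes, with a median residual SD of 0.34 log units against 0.19 over all 12923 genes tested. Where leaving out 1 array shrank a difference given for a named gene by over 1.5 times, the smaller value is given as well. This was done for differences with an unadjusted p under 0.05, and for only some of the others.

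Wnt proteins are lipid-modified secreted signals that bind Frizzled receptors. Together with Lrp5 or Lrp6, Frizzleds stabilise beta-catenin, which enters the nucleus, joins Lef1 and Tcf proteins and switches on targets such as Axin2, itself a brake on the pathway. Other Wnts, Wnt5a among them, also act through Ror receptors and the planar cell polarity branch without beta-catenin. In the mouse embryo Wnt3 is required for the primitive streak to form, and Wnt signals keep streak and nascent mesoderm genes on.

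SclKO cells were first compared with WT Scl+ cells, the Scl-expressing fraction. Wnt5a, Wnt5b, Wnt3, Fzd7, Dkk1, Frzb, Sfrp1, Lef1 and Axin2 lay higher on both SclKO arrays than on either WT Scl+ array, by between 0.89 and 2.71 log units. Lgr5, Fzd10 and Rspo3 lay lower on both SclKO arrays, by between 1.09 and 2.80 log units. None of the 42 genes passed the threshold in limma's test, an adjusted p under 0.05 over all 12923 genes: the lowest adjusted p among them was 0.117, and 0.00774% of all genes tested passed. At an unadjusted p under 0.05, 13 Wnt genes (31.0%) were higher in SclKO, against 7.16% of all genes, and 3 (7.14%) were lower, against 6.8% of all genes. Groups did not overlap for 16 higher genes (38.1%, against 23.2% of all genes) and 7 lower genes (16.7%, against 20.2%). The median difference was 0.22 log units over the 42 Wnt genes and 0.04 over all genes. The higher share was thus above the background and the lower share was close to it. In these bulk samples, fewer cells of a type and less RNA per cell cannot be told apart.

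WT Scl+ cells were next compared with WT Scl- cells of the same reporter line, the comparison without a difference in ES line. Wnt5a, Wnt5b, Wnt3, Fzd7, Frzb, Lef1, Dkk1 and Axin2 were at lower levels on both WT Scl+ arrays, by between 0.87 and 2.41 log units, and Lgr5, Fzd10, Rspo3 and Fzd8 were at higher levels, by between 0.62 and 1.47 log units; Fzd8, at the low end, differed by 0.33 without WT Scl- replicate 1. Again no Wnt gene passed limma's test (lowest adjusted p = 0.399), and 0.0% of all genes did. At an unadjusted p under 0.05, 4 Wnt genes (9.52%) were higher in WT Scl+, against 5.4% of all genes, and 9 (21.4%) were lower, against 3.74% of all genes. Groups did not overlap for 8 higher genes (19.0%, against 18.9%) and 13 lower genes (31.0%, against 18.5%). The median difference was -0.07 log units over the Wnt genes and -0.02 over all genes. This comparison and the previous one share the WT Scl+ arrays, so their opposite signs are not independent observations.

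SclKO cells were last compared with WT Scl- cells. Wnt5a, Wnt5b, Wnt3, Fzd7, Lef1 and Axin2 differed by between -0.10 and 0.10 log units, with overlapping groups. Lgr5 lay lower on both SclKO arrays, and Frzb, Dkk1 and one Fzd2 probe set lay higher. No Wnt gene passed limma's test (lowest adjusted p = 0.884, with 0.00774% of all genes passing). At an unadjusted p under 0.05 there was 1 higher Wnt gene (2.38%, against 3.14% of all genes) and 1 lower (2.38%, against 2.38%). Groups did not overlap for 11 higher genes (26.2%, against 22.9%) and 4 lower genes (9.52%, against 18.7%), shares near or under the background. The median difference was 0.08 log units over the Wnt genes and 0.02 over all genes.

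**Figure D1:**
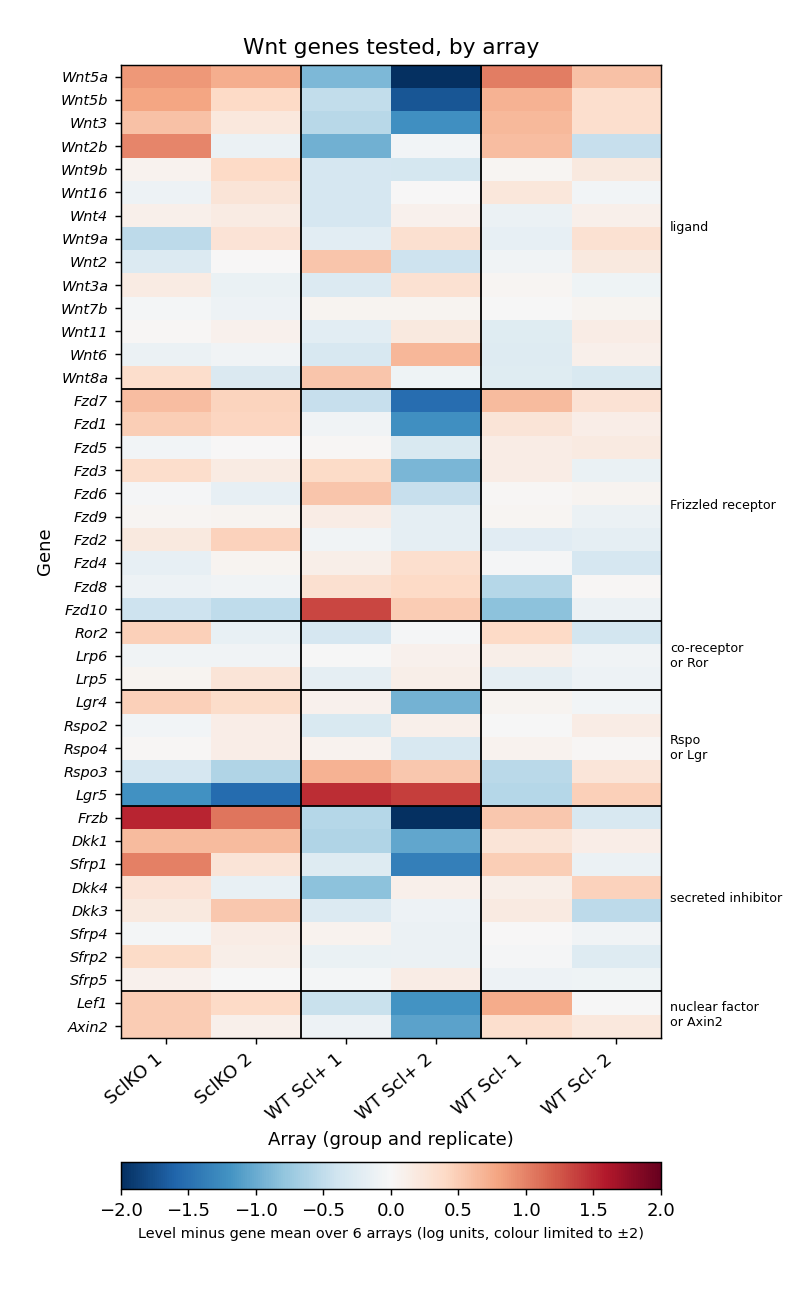
Level of each of the 42 Wnt genes tested on each array, minus that gene's mean over the 6 arrays, in log units with the colour limited to ±2. Genes are grouped by role and ordered within a role by the difference of WT Scl+ minus WT Scl-; Wnt5a, Wnt5b and Wnt3 at the top of the ligands are blue on both WT Scl+ arrays, and Lgr5 and Fzd10 are red there.

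Among the ligands, Wnt5a showed the largest difference. Wnt5a, which drives cell movement and axis extension in the streak, was at 10.33 and 10.19 in SclKO, at 8.57 and 7.17 in WT Scl+ and at 10.50 and 10.06 in WT Scl-. Both WT Scl+ arrays lay below all 4 others. The difference of SclKO minus WT Scl+ was 2.39 ± 0.44 log units (SE, n = 2 arrays a group; limma adjusted p = 0.134), which is 5.26-fold on the log2 reading and 11-fold on the linear one. WT Scl+ minus WT Scl- gave -2.41 ± 0.44 (SE, adjusted p by limma = 0.399), and SclKO minus WT Scl- gave -0.02, with a 95% interval of -1.09 to 1.06. All 4 probe sets of Wnt5a gave the same directions for WT Scl+, from 1.80 to 2.85 for SclKO minus WT Scl+.

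Wnt5b, the close relative of Wnt5a, was at 8.39 and 8.01 in SclKO, at 7.11 and 5.89 in WT Scl+ and at 8.31 and 7.94 in WT Scl-. Wnt3, the ligand needed for the streak, was at 7.16 and 6.78 in SclKO, at 6.02 and 5.34 in WT Scl+ and at 7.22 and 6.91 in WT Scl-. For both genes the WT Scl+ arrays were the lowest of the 6 and did not overlap with either other group. For Wnt5b, SclKO minus WT Scl+ was 1.70 ± 0.40 log units (SE, adjusted p by limma = 0.179) and WT Scl+ minus WT Scl- was -1.63 ± 0.40 (SE; adjusted p = 0.399). Without WT Scl+ replicate 2 these were 1.09 and -1.02. For Wnt3 they were 1.29 ± 0.28 (SE, adjusted p by limma = 0.166) and -1.39 ± 0.28 (SE; adjusted p = 0.399).

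The other streak ligands named in the rule did not share this order. Wnt3a, which maintains later paraxial mesoderm, was at 6.12 and 5.83 in SclKO, at 5.68 and 6.26 in WT Scl+ and at 5.99 and 5.87 in WT Scl-. Wnt11, a ligand of the planar polarity branch, was at 6.30 and 6.37 in SclKO, at 6.07 and 6.47 in WT Scl+ and at 6.03 and 6.42 in WT Scl-. The groups overlapped for both genes in every comparison. Wnt8a, an early streak ligand, was near the limit for dim genes, at 5.09 and 4.45 in SclKO, 5.29 and 4.64 in WT Scl+ and 4.49 and 4.43 in WT Scl-. Of the 14 ligands tested, 4 (28.6%, against 7.16% of all genes) were higher in SclKO than in WT Scl+ at an unadjusted p under 0.05 and none was lower (against 6.8%). The fourth was Wnt9b, at 5.20 and 5.54 in SclKO, 4.80 and 4.78 in WT Scl+ and 5.17 and 5.33 in WT Scl-. The second Wnt9b probe set did not repeat its difference, at -0.13 log units for SclKO minus WT Scl+. Wnt1, Wnt7a, Wnt8b, Wnt10a and Wnt10b were too dim to test.

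Frizzled receptors, the membrane receptors of Wnts, were all bright enough to test, and they split. Fzd7, a Frizzled of streak and mesoderm, was at 10.85 and 10.67 in SclKO, at 9.76 and 8.71 in WT Scl+ and at 10.86 and 10.51 in WT Scl-. Fzd10 was at 5.75 and 5.65 in SclKO, at 7.49 and 6.67 in WT Scl+ and at 5.34 and 6.04 in WT Scl-. The WT Scl+ arrays were thus the 2 lowest for Fzd7 and the 2 highest for Fzd10. For Fzd7, SclKO minus WT Scl+ was 1.52 ± 0.35 log units (SE, adjusted p by limma = 0.176) and WT Scl+ minus WT Scl- was -1.45 ± 0.35 (SE; adjusted p = 0.399); without WT Scl+ replicate 2 they were 1.00 and -0.92. For Fzd10 the differences were -1.38 ± 0.34 (SE, adjusted p by limma = 0.185) and 1.40 ± 0.34 (SE; adjusted p = 0.399). The second and dimmer Fzd10 probe set did not show them, at 0.35 and -0.10 log units.

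Fzd1 was at 6.84 and 6.77 in SclKO, at 6.27 and 5.12 in WT Scl+ and at 6.60 and 6.47 in WT Scl-. Much of its difference of 1.10 log units (SclKO minus WT Scl+) came from 1 array: it was 0.53 without WT Scl+ replicate 2, and WT Scl+ minus WT Scl- was -0.26 without it, against -0.84 with it. Its second probe set gave 0.09 and -0.07. Fzd2 was at 8.42 and 8.69 in SclKO, at 8.15 and 8.05 in WT Scl+ and at 7.99 and 8.04 in WT Scl-. Both SclKO arrays were the highest for that probe set, with SclKO minus WT Scl- at 0.55 ± 0.16 log units (SE, adjusted p by limma = 0.884). The other Fzd2 probe sets went the other way, each at -0.25. Of the 10 Frizzleds, 3 (30%, against 7.16% of all genes) were higher and 1 (10.0%, against 6.8%) was lower in SclKO than in WT Scl+ at an unadjusted p under 0.05, and Fzd3, Fzd5, Fzd6 and Fzd9 overlapped between those groups. For Fzd3 this holds for the brightest probe set. Of its others, those at 0.42, 0.72 and 0.98 log units lay higher in SclKO without overlap, and those at -0.01 and 0.23 overlapped.

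The co-receptors varied little. Lrp6, which forms the beta-catenin signalling receptor with a Frizzled, was at 9.68 and 9.68 in SclKO, at 9.74 and 9.84 in WT Scl+ and at 9.87 and 9.67 in WT Scl-. Its relative Lrp5 differed by 0.18 log units for SclKO minus WT Scl+ (0.03 without WT Scl+ replicate 1). For WT Scl+ minus WT Scl- it differed by 0.11 (-0.04 without WT Scl+ replicate 2). Ror2, a tyrosine kinase receptor for Wnt5a, differed by 0.34 and -0.19 in these 2 comparisons, with overlapping groups. The first was 0.03 without SclKO replicate 1, and the second was 0.19 without WT Scl- replicate 1. The second Ror2 probe set lay higher in SclKO without overlap, by 0.49 log units against WT Scl+ and by 0.53 against WT Scl-. Ror1 was too dim to test. None of the 3 tested had an unadjusted p under 0.05 in any comparison.

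R-spondins are secreted proteins that bind Lgr receptors and keep Frizzleds on the cell surface. Lgr5 ran opposite to most of the other genes: it was at 4.87 and 4.53 in SclKO, at 7.55 and 7.45 in WT Scl+ and at 5.50 and 6.55 in WT Scl-. The 3 groups did not overlap, with SclKO lowest, near the limit for dim genes, and WT Scl+ highest. SclKO minus WT Scl+ was -2.80 ± 0.34 log units (SE, adjusted p by limma = 0.117), 6.96-fold lower in SclKO on the log2 reading and 16.4-fold lower on the linear one. SclKO minus WT Scl- was -1.33 ± 0.34 (SE; 95% interval -2.16 to -0.49; limma adjusted p = 0.884), and it was -0.80 without WT Scl- replicate 2. WT Scl+ minus WT Scl- was 1.47 ± 0.34 (SE, adjusted p by limma = 0.399); it was 0.95 without WT Scl- replicate 1 and 2.00 without WT Scl- replicate 2, since those arrays lay apart. The second Lgr5 probe set gave -2.62, -0.94 and 1.67 in the same 3 comparisons.

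Lgr4, the other receptor of R-spondins in the list, was at 9.31 and 9.21 in SclKO, at 8.93 and 7.90 in WT Scl+ and at 8.90 and 8.79 in WT Scl-. Its order was thus opposite to that of Lgr5 between SclKO and WT Scl+, by 0.84 log units, though by 0.33 without WT Scl+ replicate 2. Rspo3, the R-spondin of early mesoderm and vessel development, was at 8.30 and 8.03 in SclKO, at 9.33 and 9.17 in WT Scl+ and at 8.09 and 8.87 in WT Scl-. WT Scl+ was the highest group for Rspo3, and the other groups overlapped. SclKO minus WT Scl+ was -1.09 ± 0.27 log units (SE, adjusted p by limma = 0.194) and WT Scl+ minus WT Scl- was 0.77 ± 0.27 (SE; adjusted p = 0.486), the second at 0.38 without WT Scl- replicate 1. Its other probe set gave -0.35 and 0.30 with overlapping groups. Rspo2 and Rspo4 overlapped in all 3 comparisons.

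Of the 8 secreted inhibitors tested, Dkk1, Frzb and Sfrp1 had both WT Scl+ arrays below every other array. Dkk1, which blocks Lrp5 and Lrp6 and is itself a target of the pathway, was at 8.84 and 8.84 in SclKO, at 7.61 and 7.17 in WT Scl+ and at 8.48 and 8.35 in WT Scl-. The 3 groups did not overlap, with SclKO highest and WT Scl+ lowest. SclKO minus WT Scl+ was 1.45 ± 0.19 log units (SE, adjusted p by limma = 0.117), WT Scl+ minus WT Scl- was -1.03 ± 0.19 (SE; adjusted p = 0.399) and SclKO minus WT Scl- was 0.42 ± 0.19 (SE; adjusted p = 0.89). A second Dkk1 probe set gave a larger gap of 3.01 for SclKO minus WT Scl+.

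Frzb, a secreted Frizzled-like protein that binds Wnts, was at 8.13 and 7.68 in SclKO, at 6.03 and 4.36 in WT Scl+ and at 7.15 and 6.29 in WT Scl-. The groups were in the same order as for Dkk1 and did not overlap. SclKO minus WT Scl+ was 2.71 ± 0.57 log units (SE, adjusted p by limma = 0.158) and SclKO minus WT Scl- was 1.18 ± 0.57 (SE; 95% interval -0.20 to 2.56; adjusted p = 0.923), with 0.75 without WT Scl- replicate 2. WT Scl+ minus WT Scl- was -1.53 ± 0.57 (SE, adjusted p by limma = 0.495), and -0.69 without WT Scl+ replicate 2. Sfrp1, of the same family, was at 7.31 and 6.57 in SclKO, at 6.04 and 4.93 in WT Scl+ and at 6.80 and 6.18 in WT Scl-. WT Scl+ was again the lowest group, while SclKO and WT Scl- overlapped. Sfrp1 differed by 1.45 ± 0.44 log units for SclKO minus WT Scl+ (SE, adjusted p by limma = 0.252) and by -1.0 ± 0.44 for WT Scl+ minus WT Scl- (SE; adjusted p = 0.572), and by 0.90 and -0.45 without WT Scl+ replicate 2. Sfrp2 lay 0.38 log units higher in SclKO than in WT Scl+ and 0.39 higher than in WT Scl-. Without SclKO replicate 1 these were 0.25 and 0.26. Sfrp4 and Sfrp5 differed by 0.08 and -0.02 for SclKO minus WT Scl+. Dkk3 was higher in SclKO than in WT Scl+ by 0.56 and than in WT Scl- by 0.53 (0.18 without WT Scl- replicate 2). Its second probe set gave 0.15 and 0.16 with overlapping groups. Dkk4, near the limit for dim genes, differed by 0.43 for SclKO minus WT Scl+, with overlapping groups. For WT Scl+ minus WT Scl- it differed by -0.65, and by -0.19 without WT Scl+ replicate 1.

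Lef1, the nuclear partner of beta-catenin, was at 10.32 and 10.20 in SclKO, at 9.36 and 8.61 in WT Scl+ and at 10.54 and 9.80 in WT Scl-. Axin2, the feedback target often used as a readout of the pathway, was at 10.18 and 9.77 in SclKO, at 9.57 and 8.59 in WT Scl+ and at 10.01 and 9.88 in WT Scl-. WT Scl+ was the lowest group for both, and SclKO and WT Scl- overlapped. Lef1 differed by 1.28 ± 0.33 log units for SclKO minus WT Scl+ (SE, adjusted p by limma = 0.206) and by -1.18 ± 0.33 for WT Scl+ minus WT Scl- (SE; adjusted p = 0.416). Axin2 differed by 0.89 ± 0.33 (SE, adjusted p by limma = 0.325) and by -0.87 ± 0.33 (SE; adjusted p = 0.508), with 0.40 and -0.38 without WT Scl+ replicate 2. For SclKO minus WT Scl-, the 95% intervals were -0.71 to 0.90 for Lef1, -0.78 to 0.84 for Axin2, -0.77 to 0.57 for Wnt3 and -0.77 to 0.92 for Fzd7, so that each interval holds differences of 0.5 log units in both directions.

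**Figure D2:**
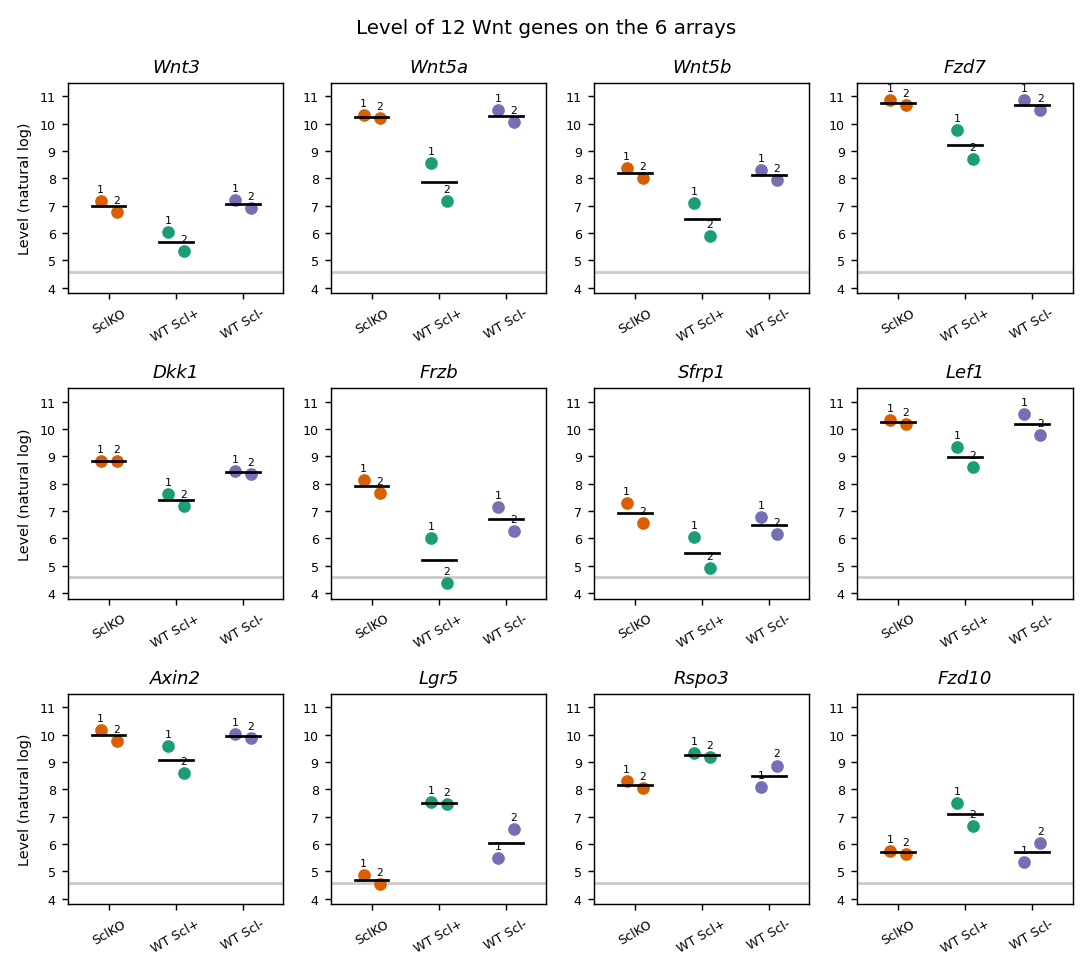
Level (natural log of the deposited value) of 12 Wnt genes on the 6 arrays, with points numbered by replicate, the bar at the group mean and the grey band at the limit for dim genes (4.54 to 4.59). WT Scl+ is lowest from Wnt3 to Axin2 and highest for Lgr5, Rspo3 and Fzd10, and its second array is the lower one in all 12 panels, with the widest gap for Frzb (4.36 and 6.03).

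The promoters of 4 of these genes are shown because each holds a core motif of the Lef1 and Tcf proteins, CTTTGA or its reverse complement TCAAAG. They are the 250 bases before an annotated RefSeq transcription start in the assembly GRCm38.p6, written 5′ to 3′ on the gene's strand, with matches in capitals. Dkk1 (chr19:30549497-30549746, minus strand) holds the motif 174 and 117 bases before the start, and Frzb (chr2:80447397-80447646, minus strand) holds it 95 bases before. Wnt5b (chr6:119449387-119449636, minus strand) holds it 71 bases before one of its listed starts, with CAGATG, the E box bound by Scl with its E protein partners, 183 bases before. Lef1 (chr3:131156044-131156293, plus strand) holds it 180 and 120 bases before its listed start farthest downstream, with the GATA motif TGATAA 195 bases before.
Dkk1: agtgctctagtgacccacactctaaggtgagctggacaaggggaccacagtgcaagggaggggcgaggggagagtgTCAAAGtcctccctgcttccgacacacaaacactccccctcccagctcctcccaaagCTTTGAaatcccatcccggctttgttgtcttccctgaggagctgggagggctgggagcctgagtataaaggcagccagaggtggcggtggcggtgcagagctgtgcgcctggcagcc
Frzb: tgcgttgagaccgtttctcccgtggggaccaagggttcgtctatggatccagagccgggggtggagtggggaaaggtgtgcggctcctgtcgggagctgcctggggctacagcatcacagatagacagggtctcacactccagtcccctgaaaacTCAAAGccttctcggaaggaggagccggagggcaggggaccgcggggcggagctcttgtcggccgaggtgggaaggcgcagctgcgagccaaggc
Wnt5b: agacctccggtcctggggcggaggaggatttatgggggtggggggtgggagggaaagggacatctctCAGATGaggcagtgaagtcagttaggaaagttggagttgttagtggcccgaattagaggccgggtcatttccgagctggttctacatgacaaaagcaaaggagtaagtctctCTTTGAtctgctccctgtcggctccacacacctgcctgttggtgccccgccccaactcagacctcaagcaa
Lef1: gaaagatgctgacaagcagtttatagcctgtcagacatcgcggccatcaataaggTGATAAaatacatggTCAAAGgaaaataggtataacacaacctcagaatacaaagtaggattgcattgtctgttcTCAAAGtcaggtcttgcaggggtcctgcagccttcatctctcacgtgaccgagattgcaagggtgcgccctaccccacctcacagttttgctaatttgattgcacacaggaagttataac
A promoter was available for 33 of the 50 Wnt genes, 39 promoters in all, and both strands were searched. CTTTGA was found in 7 of them (17.9%, against 13.8% of 32851 mouse promoters of that length), CAGATG in 3 (7.7%, against 14.4%), and TGATAA or AGATAA in 5 (12.8%, against 16.6%). No matches to different motifs overlapped. The 7 were those of Dkk1, Frzb, Wnt5b, Lef1, Fzd1, Wnt11 and the dim gene Ror1. The motif was thus present at some genes that lay lower in WT Scl+ and at Wnt11, which did not. It was absent from the promoters of Axin2, Fzd7 and Wnt3, which lay lower there too. The other listed starts of Lef1 and Wnt5b also lacked it, and no promoter was available for Wnt5a or Sfrp1. The matches are letters in the sequence and no measurement of binding.

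**Figure D3:**
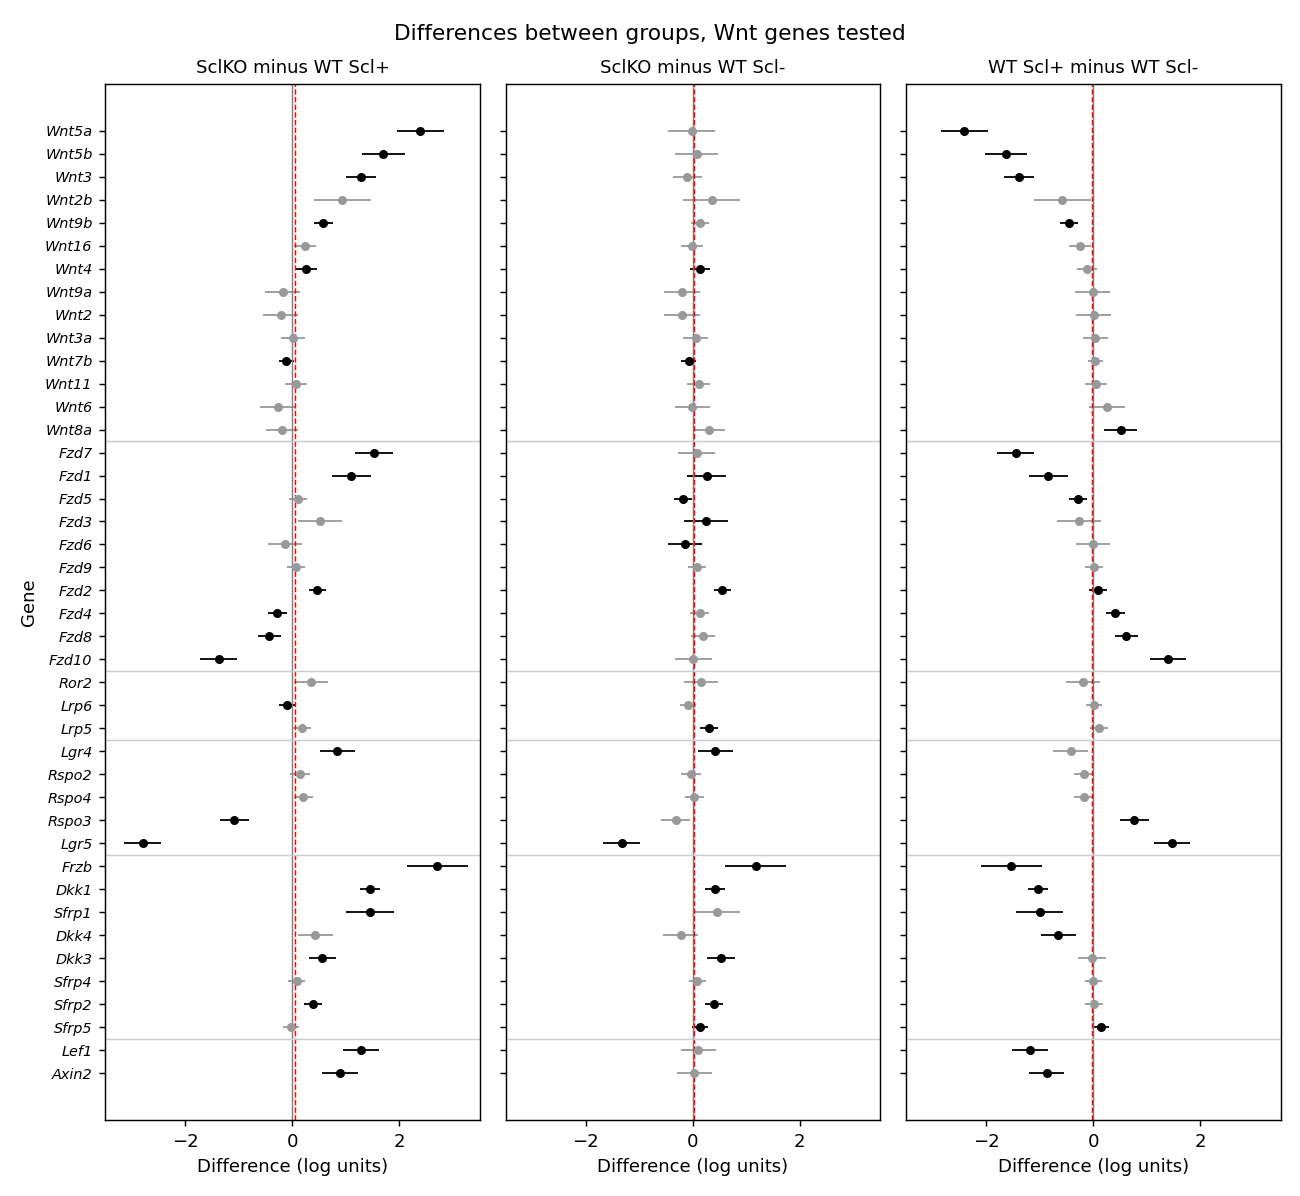
Difference of group means (points) and its standard error (bars) in log units for the 42 Wnt genes tested, in 3 panels, one per comparison; black points mark groups that do not overlap, grey points groups that do, and the dashed red line the median of all genes tested. For SclKO minus WT Scl+ the points run from -2.80 for Lgr5 to 2.71 for Frzb, and for SclKO minus WT Scl- from -1.33 for Lgr5 to 1.18 for Frzb.

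Genes with several probe sets allowed a check within the arrays. Among the 19 Wnt genes with more than 1 probe set above the limit, all probe sets had the same sign in 16 genes for SclKO minus WT Scl+, in 15 for SclKO minus WT Scl- and in 13 for WT Scl+ minus WT Scl-. Wnt5a, Wnt5b, Fzd7, Dkk1, Frzb, Sfrp1, Lef1, Axin2 and Lgr5 kept their sign on every such probe set in both comparisons with WT Scl+. Fzd10 did not, and for Fzd1 and Rspo3 the second probe set gave a smaller difference. Wnt3 had no second probe set, so this check did not cover it.

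**Figure D4:**
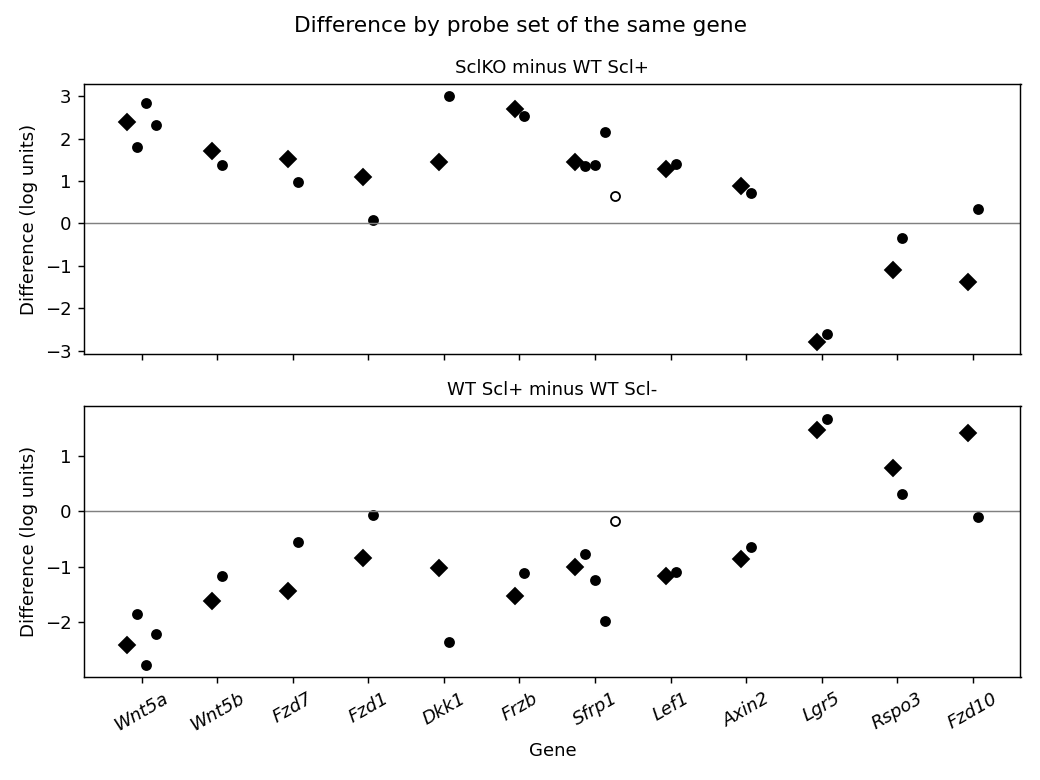
Difference in log units for each probe set of 12 Wnt genes, SclKO minus WT Scl+ above and WT Scl+ minus WT Scl- below. Diamonds are the probe set used for the gene, circles the others, and open symbols probe sets under the limit for dim genes; the probe sets of Wnt5a run from 1.80 to 2.85 in the upper panel, while those of Fzd10 lie on both sides of 0.

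The rest of the pathway was followed with lists of genes outside the rule, chosen with earlier results of these data known. Of 13 tested genes known as Wnt targets in streak and mesoderm, 6 (46.2%, against 7.16% of all genes) were higher in SclKO than in WT Scl+ at an unadjusted p under 0.05 and none was lower (median 0.79 log units). In WT Scl+ against WT Scl-, 6 (46.2%, against 3.74% of all genes) were lower and none was higher (median -0.73). Mixl1, a homeobox gene of the streak, was at 11.67 and 11.59 in SclKO, 9.51 and 8.54 in WT Scl+ and 11.13 and 10.76 in WT Scl-. The zinc finger gene Sp5, a direct target of beta-catenin, was at 9.10 and 8.92 in SclKO, 7.92 and 6.88 in WT Scl+ and 8.49 and 8.30 in WT Scl-. Both had WT Scl+ as the lowest group. Sp8 and Evx1 followed, at 2.31 and 1.41 log units for SclKO minus WT Scl+ and -1.71 and -1.37 for WT Scl+ minus WT Scl-. Without WT Scl+ replicate 2 these were 1.30 and 0.75, and -0.70 and -0.70. Other genes of the list did not share this order. For SclKO minus WT Scl+, Ccnd1, Myc and Msgn1 differed by 0.01, -0.05 and -0.0 log units. Cdkn1a was at -0.39, and at -0.14 without SclKO replicate 1. For WT Scl+ minus WT Scl-, Ccnd1, Myc and Cdkn1a differed by 0.04, -0.02 and 0.01, and Msgn1 by -0.25. No gene of this list passed limma's test (the lowest adjusted p was 0.117, for Mixl1). SclKO minus WT Scl- had a median of 0.05, with none at an unadjusted p under 0.05.

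Components inside the cell differed less between WT Scl+ and the other groups. Of 22 tested genes of the beta-catenin branch, 1 had an unadjusted p under 0.05 for SclKO minus WT Scl+ (the co-repressor Tle3, 0.53 log units), and 1 for WT Scl+ minus WT Scl- (the kinase gene Gsk3a, 0.70, and 0.41 without WT Scl+ replicate 2). These are 4.55% of the list in each, against 7.16% and 5.4% of all genes higher. Beta-catenin itself (Ctnnb1) lay between 12.46 and 12.55 on all 6 arrays. For SclKO minus WT Scl-, the repressor Tcf7l1 and the co-repressor Tle4 were higher, at 0.53 and 0.51 log units (limma adjusted p = 0.884 for each). Both had an unadjusted p under 0.05, alone among the 22. Of all genes, 3.14% were higher at that p in this comparison. Among 13 secretion and surface genes, Wls, which carries Wnts to the cell surface, was at 9.24 and 8.89 in SclKO, 8.74 and 7.04 in WT Scl+ and 9.53 and 9.16 in WT Scl-. Its difference of -1.45 for WT Scl+ minus WT Scl- was -0.60 without WT Scl+ replicate 2. Gpc3, a cell surface proteoglycan, differed by 0.79 log units for SclKO minus WT Scl+ and by -0.79 for WT Scl+ minus WT Scl-, and Kremen1, a receptor for Dkk1, ran the other way at -0.89 and 0.62, the second at 0.41 without WT Scl- replicate 1. At an unadjusted p under 0.05, 2 of these 13 were higher and 2 lower in SclKO than in WT Scl+ (15.4% each, against 7.16% and 6.8% of all genes). In WT Scl+ against WT Scl-, 1 was higher (7.69%, against 5.4%) and 3 were lower (23.1%, against 3.74%).

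Of 14 genes of the planar polarity and other beta-catenin-independent branches, 2 (14.3%, against 7.16% of all genes) were higher and 1 (7.14%, against 6.8%) was lower in SclKO than in WT Scl+ at that p: Vangl1 at 1.12, Prickle1 at 0.67 and Nfatc1 at -1.08 log units. Without WT Scl+ replicate 2 they were at 0.70, 0.44 and -0.71. For WT Scl+ minus WT Scl-, Celsr2 (0.81) and Nfatc1 (0.79, and 0.43 without WT Scl+ replicate 2) were higher, 14.3% of the list against 5.4% of all genes, and none was lower.

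Marker lists of the cell types that Flk1+ mesoderm can hold or form differed between the same groups. The 11 tested streak and mesoderm markers averaged 9.60 and 9.55 in SclKO, 8.49 and 7.54 in WT Scl+ and 9.33 and 9.0 in WT Scl-. The 11 tested endothelial markers averaged 5.24 and 6.04 in SclKO, 7.12 and 7.92 in WT Scl+ and 4.81 and 6.62 in WT Scl-, and the 10 tested blood markers averaged 4.76 and 5.03 in SclKO, 7.39 and 7.22 in WT Scl+ and 5.11 and 6.07 in WT Scl-. WT Scl+ was thus lowest in streak markers and highest in endothelial and blood markers, in the same arrays where Wnt5a, Wnt3, Dkk1 and Lef1 were low and Lgr5 was high. At an unadjusted p under 0.05, 9 of 11 streak markers were lower in WT Scl+ than in WT Scl- (against 3.74% of all genes), and 10 of 11 endothelial and 10 of 10 blood markers were higher (against 5.4%). Mixl1 and Evx1 are in both the streak list and the Wnt target list. The 10 cardiac markers averaged 6.38 and 6.16 in SclKO, 6.07 and 5.78 in WT Scl+ and 6.30 and 6.09 in WT Scl-, and the 8 tested pluripotency markers 7.01 and 6.71 in SclKO, 7.07 and 5.58 in WT Scl+ and 6.77 and 6.29 in WT Scl-. The 8 tested endoderm markers averaged 6.70 and 6.68 in SclKO, 6.87 and 6.33 in WT Scl+ and 6.28 and 6.21 in WT Scl-. The 4 tested neural markers averaged 6.71 and 6.87 in SclKO, 6.60 and 5.96 in WT Scl+ and 6.50 and 6.43 in WT Scl-; among them Otx2, also an early embryonic gene, was at 8.93 and 9.37 in SclKO and at 8.02 and 5.42 in WT Scl+. Emcn, Ptprc, Sox1, Pax3 and Zic1 were above the limit on no array. The part of these cell types in the Wnt gene differences was not tested.

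**Figure D5:**
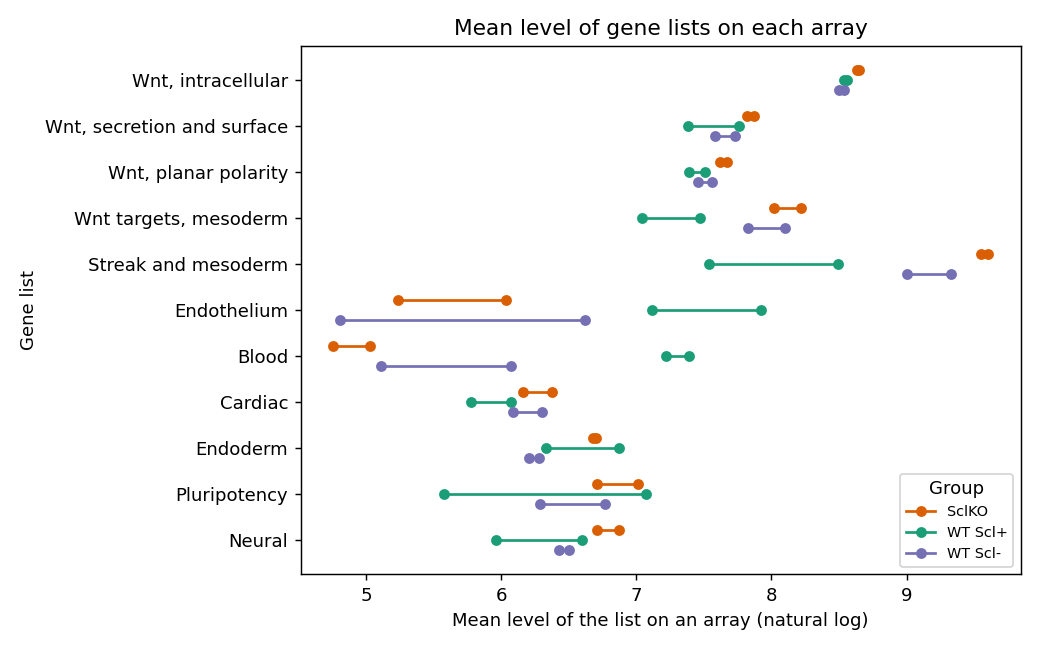
Mean level of the tested genes of each list on each array (natural log), with the 2 arrays of a group joined by a line and the groups in the order SclKO, WT Scl+ and WT Scl- from top to bottom within a list. The streak and mesoderm list and the Wnt targets are lowest in WT Scl+ (8.49 and 7.54 for the streak list), the endothelial and blood lists highest there, and the list of intracellular Wnt components lies between 8.50 and 8.65 on all arrays.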

How the data were processed

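Total RNA of 6 samples, 3 groups of 2, was labelled with biotin and hybridised to Affymetrix mouse arrays. The submitters' processing notes list RMA, affy and limma without versions. RMA removes background, quantile-normalises the arrays and summarises each probe set, so broad shifts between arrays are lost. The values as deposited by the authors have no stated unit and are not logs; on each array 1040 to 1153 of them exceeded 65535, which a 16-bit scanner cannot give. The fixed design had assumed log2 values, and the natural log was taken before the same test. Arrays have no read depth, and their number limits the precision. Number of columns of per-sample values left unused: 0.

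Of the probe sets, 34958 had 1 annotated symbol, 932 had several and 9211 had none. For 34754 of those with 1 symbol, the symbol was taken from the Entrez identifier, whether or not it changed. Each gene was represented by its brightest probe set (highest mean of the 6 arrays). Testing needed a value above the array's 40th percentile on at least 2 arrays, which left 12923 genes, 42 of them Wnt genes; none of the 42 passed through 1 group alone. Group means were modelled on all 6 arrays together in limma 3.58.1 (R 4.3.3, eBayes, two-sided), with Benjamini-Hochberg adjustment over every gene tested. The fit was also run on simulated data with independent normal noise and no array standing apart. That run does not speak to arrays such as WT Scl+ replicate 2. Groups do not overlap where every array of one lies above every array of the other.

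The Wnt genes and all lists were chosen with earlier results of these data known. Named with values on every array were, per comparison, up to 10 Wnt genes with the largest difference among those without overlap and with an unadjusted p under 0.05, the brightest gene of each role, and Wnt3, Wnt3a, Wnt5a, Wnt5b, Wnt8a, Wnt11, Dkk1, Lef1 and Axin2. Fzd1, Rspo3, Wnt9b and Fzd8 were singled out after their values were seen. From each pathway list, up to 4 genes with the largest difference at an unadjusted p under 0.05 could be named. Ctnnb1 was added, and Otx2 among the markers. Ccnd1, Myc, Msgn1 and Cdkn1a were added after their values were seen. Promoter sequences are from RefSeq. Alternatives were a replicate block, other filters on dim genes, other uses of probe sets, centring, eBayes settings, fits of 2 groups and leaving out each array.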

Additional observations from a re-analysis of the deposited data

How the results depend on the processing

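Medians over the Wnt genes and the differences of the named genes kept their direction under most alternatives, but the calls depended on which arrays were used. The fit as reported called no Wnt gene; Lgr5 alone was called for SclKO minus WT Scl+ (1 gene) with trended and robust eBayes (limma adjusted p = 0.0444) and with only the 2 groups compared (limma adjusted p = 0.0279), where 19 and 49 of all genes were called, against 1. With 1 array left out, between 0 and 11 Wnt genes were called for SclKO minus WT Scl+, between 0 and 6 for WT Scl+ minus WT Scl-, and 0 for SclKO minus WT Scl-. The 11 and the 6 arose without WT Scl+ replicate 1, when the array standing apart was the sole one of its group and was assumed to vary like the others, and 699 and 203 of all genes were then called. Without either WT Scl- array, Lgr5 was called, with 49 genes in all. A stricter filter at the 60th percentile called 9 and 2 of all genes for SclKO against WT Scl+ and WT Scl-, the mean of all probe sets called 4 and 4, against 1 and 1, and neither called a Wnt gene. That filter moved the median difference of the Wnt genes to 0.46 for SclKO minus WT Scl+ and to -0.26 for WT Scl+ minus WT Scl-, since fewer and brighter genes were tested. With 1 array left out the medians ran between 0.15 and 0.33, between 0.04 and 0.12 for SclKO minus WT Scl-, and between -0.14 and -0.07 for WT Scl+ minus WT Scl-.

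Of 57 differences of named genes, 3 reversed under an alternative other than leaving out an array, and the cause was not tested: Wnt3a for SclKO minus WT Scl+ (-0.02 with arrays centred on their median), Wnt5a for SclKO minus WT Scl- (0.03 with the mean of all probe sets) and Fzd2 for WT Scl+ minus WT Scl- (-0.24 with the mean of all probe sets). With 1 array left out, 38 kept their direction and 19 did not. For SclKO minus WT Scl+ these ranged from -0.28 to 0.30 (Wnt3a), -0.52 to 0.13 (Wnt8a) and -0.13 to 0.26 (Wnt11). For WT Scl+ minus WT Scl- they ranged from -0.94 to 0.09 (Lgr4), -0.09 to 0.11 (Lrp6), -0.25 to 0.33 (Wnt3a) and -0.15 to 0.24 (Wnt11). For SclKO minus WT Scl- they ranged from -0.24 to 0.20 (Wnt5a), -0.12 to 0.26 (Wnt5b), -0.10 to 0.25 (Fzd7), -0.34 to 0.36 (Fzd10), -0.29 to 0.09 (Wnt3), -0.27 to 0.47 (Lef1), -0.18 to 0.23 (Axin2), -0.19 to 0.01 (Lrp6), -0.71 to 0.07 (Rspo3), -0.10 to 0.19 (Wnt3a), -0.01 to 0.63 (Wnt8a) and -0.08 to 0.31 (Wnt11).

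The groups share replicate numbers, but the labels do not say whether same-numbered samples were cultured or sorted together. The deviations of same-numbered arrays correlated at 0.25 in each pair of groups. With the replicate number as a block, 0 Wnt genes were called in each comparison, and 3, 1 and 0 of all genes were called for SclKO minus WT Scl+, SclKO minus WT Scl- and WT Scl+ minus WT Scl-, against 1, 1 and 0 without it. With 2 arrays a group and 8 of 50 Wnt genes too dim to test, small differences and dim ligands were beyond the precision of these data.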
